A study of Ictalurus punctatus x Ictalurus furcatus and Ictalurus furcatus and Ictalurus punctatus with 8 samples.

Results

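Liver RNA of the blue catfish (Ictalurus furcatus, PB) was compared with liver RNA of the hybrid F1_CB, the cross of a channel catfish (Ictalurus punctatus) female with a blue catfish male. The 2 PB libraries and the 2 F1_CB libraries, 4 of the 8 libraries of the series, were assigned by their labels. The comparison itself was chosen with earlier results of these data known. F1_CB carries 1 genome copy from each species, so blue catfish alleles are common to both groups and the channel catfish alleles and the maternal cytoplasm are not. All fish were sampled at 12 months of age, and the other 4 libraries came from channel catfish (PC) and from the reciprocal hybrid F1_BC, whose mother was a blue catfish. Each library was made from the liver of 1 fish, no treatment was given, and the sources used here do not state the sex of the fish. Each genetic type was kept in its own tank, so type and tank cannot be told apart. Reads of all types were aligned to the channel catfish genome, so for PB the level of a transcript and the share of its reads that aligned cannot be told apart.

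The liver handles the fuels absorbed from the gut, secretes most plasma proteins, disposes of amino acid nitrogen and sulfur, and breaks down heme. Its hepatocytes share the organ with macrophages, endothelial cells and blood, and in catfishes also with pancreatic tissue that follows the vessels, so a bulk liver library reads all of these. In an F1 hybrid both parental copies of a gene are under the same set of regulators.

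Values are CPM, read counts scaled to the size of each library, after rescaling by the median of ratios with factors of 0.793 to 1.2 over the 8 libraries. The median log2 difference between F1_CB and PB over the 13408 genes tested was -0.01 after rescaling and -0.18 as deposited. Library 1 and library 2 of PB had a Spearman correlation across genes of 0.906, those of F1_CB 0.929, and the means of both types 0.896. The 18 hepatocyte markers, such as fibrinogen and apolipoprotein genes, made up 17.2 to 21.7% of the CPM in the 4 livers, and 0 of them were DEGs. A differentially expressed gene (DEG) here had a Benjamini-Hochberg adjusted p under 0.05 from limma and an absolute log2 fold change over 1.5, taken on log2(CPM + 0.5), which understates changes of low genes. Positive log2 fold changes are higher in F1_CB, and errors are standard errors (SE) of the fit unless named otherwise.

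In all, 248 genes were DEGs, 1.85% of those tested. Of these, 203 (1.51%) were higher in F1_CB and 45 (0.336%) were higher in PB, with median log2 fold changes of 2.73 and -2.62. In every DEG the 2 F1_CB livers lay on 1 side of the 2 PB livers. The same was true of 3137 of all genes tested (23.4%) in the direction of F1_CB and of 3074 (22.9%) in the direction of PB. In 67 of the DEGs higher in F1_CB the PB mean was under 1 CPM, and in 15 of the DEGs higher in PB the F1_CB mean was. Both F1_CB livers lay above all 4 parental livers in 40 of the 203 (5.44% of all genes) and below them in 19 of the 45 (7.13%), which is a description, since the DEGs were called with the same libraries.

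**Figure D1:**
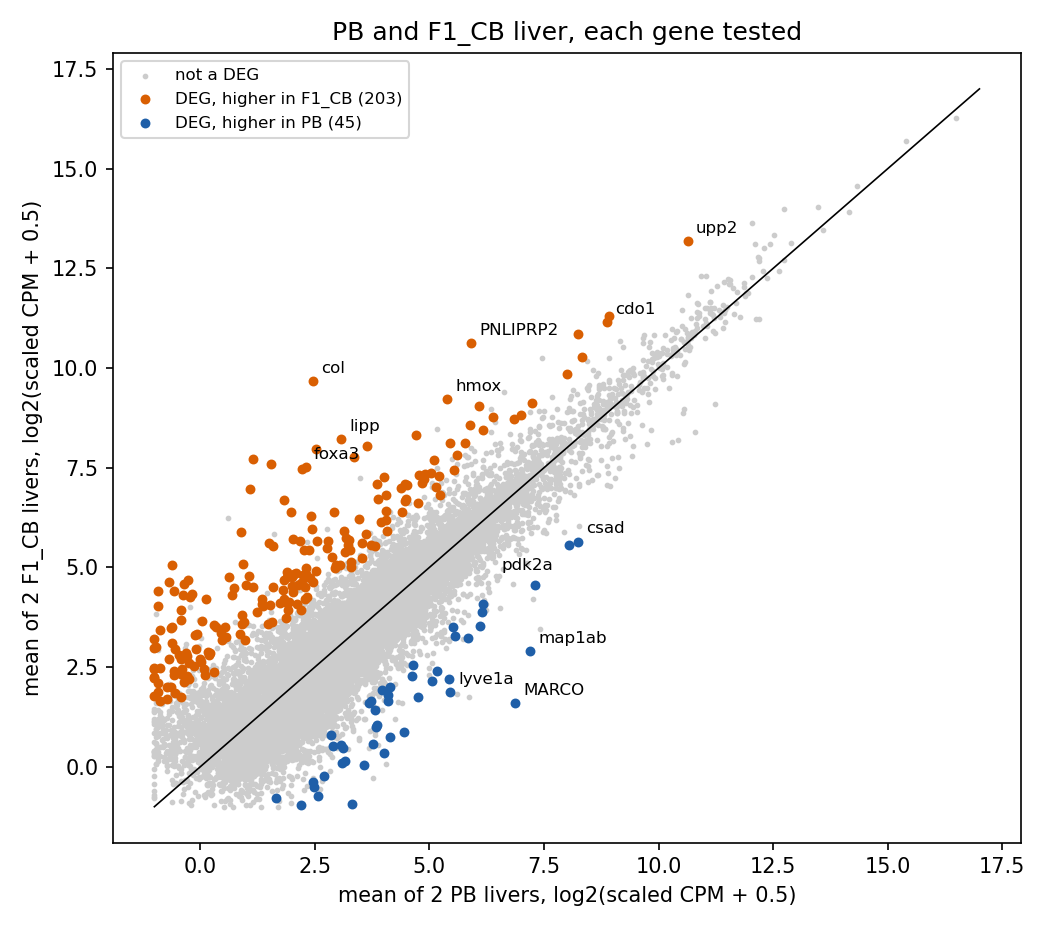
Mean level of each gene in the 2 PB livers (x axis) and the 2 F1_CB livers (y axis), as log2(scaled CPM + 0.5), with the line of equality. Orange points are the 203 DEGs higher in F1_CB, blue points the 45 higher in PB and grey points all other genes, and 12 genes described in the text are named.

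The count of DEGs rested on few fish. With PB liver 2, F1_CB liver 1 or F1_CB liver 2 left out it was 52, 46 and 66, of which 50, 41 and 63 were among the 248, and without PB liver 1 it was 239, of which 140 were. In each of the 8 fits that leave out 1 library 34 genes were DEGs, 32 higher in F1_CB and 2 higher in PB, and all 248 kept their direction in every one of them. In such a fit the type with 1 liver left is assumed to vary like the others.

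The DEG with the largest difference, and 3 further DEGs higher in F1_CB, encode a colipase and lipases. Colipase (col), the cofactor that anchors pancreatic lipase to fat droplets, had 5.24 and 4.77 CPM in the PB livers and 928 and 696 CPM in the F1_CB livers. Both F1_CB livers stood far above both PB livers, and the log2 fold change of 7.19 ± 0.44 (adjusted p = 2.35e-05) was the largest of all DEGs. Pancreatic triacylglycerol lipase (lipp), which cleaves dietary fat, had 11.6 and 4.22 CPM in PB and 418 and 175 CPM in F1_CB (log2 fold change 5.17 ± 0.58, adjusted p = 0.000935). The lipase-like gene PNLIPRP2 had 83.6 and 36.0 CPM in PB and 2252 and 920 CPM in F1_CB (4.70 ± 0.58, adjusted p = 0.00155). The same order, with liver 1 above liver 2 in both types, held for lipp and PNLIPRP2. A further lipase, lipia, described as lipase member H-like, rose from 4.27 and 3.83 CPM to 37.6 and 61.9 CPM (3.42 ± 0.40, adjusted p = 0.0012). All 4 genes stayed DEGs in every fit that left out 1 library. The PC livers had 1789 and 786 CPM of col and 1080 and 423 CPM of lipp, and the F1_BC livers 1034 and 1410 CPM of col and 212 and 253 CPM of lipp, so PB alone was low.

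The digestive proteases of the exocrine pancreas did not separate the types. Of the 12 pancreatic markers in the list, which does not hold lipp, col and PNLIPRP2 were the DEGs (16.7%, against 1.85% of all genes tested). The median log2 fold change of the list was -0.04, which moved between -1.32 without F1_CB liver 2 and 1.19 without F1_CB liver 1. Trypsinogen (prss1) had 635 and 975 CPM in the PB livers and 299 and 1464 CPM in the F1_CB livers, and carboxypeptidase A1 (CPA1) had 154 and 419 CPM in PB and 106 and 722 CPM in F1_CB. For both digestive protease genes the F1_CB livers spanned the PB livers. In F1_CB they were higher in liver 2, whereas col, lipp and PNLIPRP2 were higher in liver 1. A second colipase gene, CLPS, had 16.0 and 25.9 CPM in PB and 9.82 and 46.1 CPM in F1_CB, and again the groups overlapped. The summed level of the 12 markers was 1746 and 3037 CPM in PB and 3992 and 5980 CPM in F1_CB, where it includes the 2 DEGs, and no marker was at 0. The part of pancreatic tissue in these lipase differences was not tested.

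**Figure D2:**
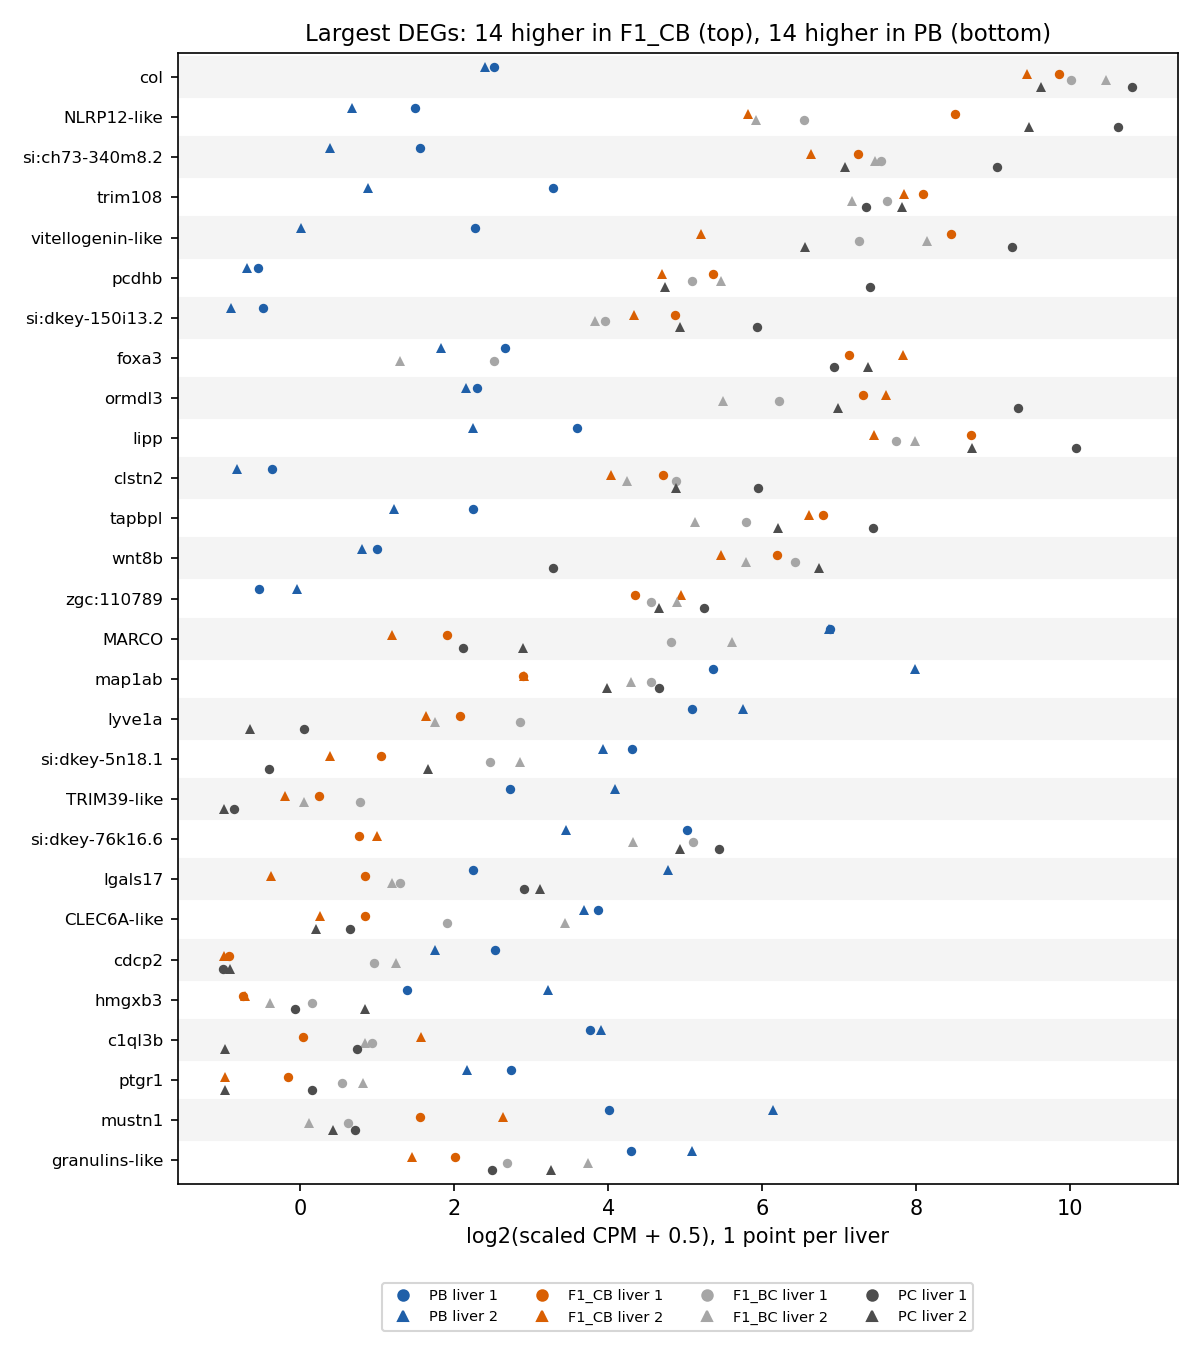
Level in each of the 8 livers of the 14 widest DEGs of each direction that have a symbol or description, as log2(scaled CPM + 0.5) on the x axis, 1 row per gene, circles for liver 1 and triangles for liver 2 of each type. In every row the orange F1_CB points lie on 1 side of the blue PB points, and the grey F1_BC and dark PC points show where the reciprocal hybrid and the channel catfish lie.

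The DEGs higher in F1_CB included transporters of the inner mitochondrial membrane and the plasma membrane. Of 235 solute carrier genes, 7 were DEGs higher in F1_CB (SLC25A34, slc5a12, slc7a1a, slc25a10, slc16a1b, slc35a3a and slc26a5) and 0 were higher in PB. That is 2.98% of the list. Over all genes tested 1.51% were DEGs higher in F1_CB and 0.336% were DEGs higher in PB. The list median was 0.19, with 95 genes below 0, and it was 0.02 as deposited and 0.05 without PB liver 2. SLC25A34, a mitochondrial carrier, had 12 and 7.63 CPM in PB and 250 and 188 CPM in F1_CB (log2 fold change 4.43 ± 0.48, adjusted p = 0.000616). Its F1_CB livers also stood above both PC livers (60.0 and 132 CPM). A gene described as a mitochondrial carnitine/acylcarnitine carrier, the type of protein that moves fatty acids in for oxidation (si:dkey-150i13.2), had 0.215 and 0.0336 CPM in PB and 28.7 and 19.6 CPM in F1_CB (5.29 ± 0.47, adjusted p = 0.000247). The ascorbate transporter-like gene zgc:110789 had 0.188 and 0.466 CPM in PB and 19.8 and 30.2 CPM in F1_CB (4.94 ± 0.44, adjusted p = 0.000248). Both were near 0 in PB and between 13.8 and 60.8 CPM in every other liver. The lactate transporter slc5a12 had 7.65 and 1.66 CPM in PB and 51.2 and 34.7 CPM in F1_CB (3.35 ± 0.63, adjusted p = 0.0203). It was low in PC as well (6.84 and 2.69 CPM), and F1_CB exceeded PC by 3.14 ± 0.63 (adjusted p = 0.0294). F1_BC had 36.3 and 22.9 CPM of slc5a12. The cationic amino acid transporter slc7a1a (2.81 ± 0.50, adjusted p = 0.0145), the dicarboxylate carrier slc25a10 (2.48 ± 0.46, adjusted p = 0.0182) and the cholesterol exporter abca1a (2.28 ± 0.43, adjusted p = 0.0209), rose too. SLC25A34, si:dkey-150i13.2 and zgc:110789 kept the call without each library. The other 4 lost it without PB liver 2 and without either F1_CB liver, and 3 of them without PB liver 1, with adjusted p of up to 0.196.

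Several DEGs, in both directions, act in cysteine and amino nitrogen disposal. Cysteine is oxidised by cysteine dioxygenase to cysteine sulfinate, which cysteine sulfinic acid decarboxylase turns toward taurine. The oxygenase cdo1 had 570 and 365 CPM in PB and 2543 and 2012 CPM in F1_CB (log2 fold change 2.31 ± 0.42, adjusted p = 0.0182). The decarboxylase csad had 235 and 367 CPM in PB and 55.7 and 43.3 CPM in F1_CB (-2.57 ± 0.47, adjusted p = 0.0168). Consecutive steps of 1 pathway thus differed in opposite directions, and for both genes F1_CB lay between PB and PC (4917 and 3853 CPM of cdo1, 15.1 and 28.0 CPM of csad). Cystathionine gamma-lyase (cthl), which makes cysteine, had 19.3 and 23.7 CPM in PB and 149 and 122 CPM in F1_CB (2.63 ± 0.46, adjusted p = 0.0139). Glutamine synthetase (glula), which fixes ammonia, had 405 and 201 CPM in PB and 2491 and 1209 CPM in F1_CB (2.60 ± 0.49, adjusted p = 0.0203). As in every DEG, the groups did not overlap in either gene, and within F1_CB glula was higher in liver 1. The transaminase kyat3, which acts on kynurenine (3.29 ± 0.44, adjusted p = 0.00304), and the amidase nit2, which acts on the keto acids of glutamine and asparagine (2.56 ± 0.37, adjusted p = 0.00538), rose as well. The polyamine enzyme SAT1 had 356 and 157 CPM in PB and 1060 and 783 CPM in F1_CB (1.95 ± 0.45, adjusted p = 0.050). In the list of 72 genes of amino acid breakdown and one-carbon metabolism, 2 were DEGs higher in F1_CB (cdo1 and glula) and 1 was higher in PB (csad). That is 4.17% of the list, against 1.85% of all genes tested. In the list 51 genes had a positive log2 fold change (49.6% of all genes tested did), with a median of 0.50. That median stayed positive under each scaling tried, at 0.30 as deposited, and was 0.33 without PB liver 2. SAT1 stood at the threshold and lost the call without PB liver 2 or without either liver of F1_CB or F1_BC (adjusted p of up to 0.321), and with another pseudocount, filter, sample set or variance model. The other 6 genes all lost it without F1_CB liver 1 and 5 of them without PB liver 2 (4 without F1_CB liver 2 and 1 without PB liver 1), with adjusted p of up to 0.196.

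Heme oxygenase, which opens the heme ring and releases iron, biliverdin and carbon monoxide, is present in several copies in this annotation. The copy hmox had 44.0 and 38.4 CPM in PB and 829 and 365 CPM in F1_CB (log2 fold change 3.73 ± 0.63, adjusted p = 0.0118). The heme oxygenase-like gene ENSIPUG00000016708 had 17.2 and 6.75 CPM in PB and 364 and 160 CPM in F1_CB (4.41 ± 0.72, adjusted p = 0.0104). Both F1_CB livers lay above all 4 parental livers for both genes, as PC had 28.8 and 135 CPM of hmox, and F1_CB exceeded PC in hmox by 3.13 ± 0.63 (adjusted p = 0.0313). The reciprocal hybrid F1_BC was high too, with 965 and 640 CPM of hmox and 505 and 190 CPM of ENSIPUG00000016708. The copy hmox1a went the other way, from 3.38 and 8.54 CPM in PB to 0.490 and 0.224 CPM in F1_CB (-2.81 ± 0.57, adjusted p = 0.0293). Reads can be split among such similar copies, so the value of a single copy is uncertain. The transporter flvcr2b, of a family that carries heme and choline in mammals, had 4.99 and 3.68 CPM in PB and 45.2 and 40.5 CPM in F1_CB (3.18 ± 0.48, adjusted p = 0.00654). In the list of 16 genes of heme synthesis and breakdown, hmox and hmox1a were the DEGs (12.5%, against 1.85% of all genes tested). In that list 12 genes had a negative log2 fold change, as had 6756 of all 13408 genes tested, and the median was -0.45. All 4 genes lost the call without PB liver 2 or F1_CB liver 1, and 2 lost it without F1_CB liver 2, with adjusted p of up to 0.241. hmox1a also lost it without either F1_BC liver and with a filter at 5 CPM (adjusted p = 0.0645).

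Several DEGs, in both directions, handle pyruvate, sugars or fatty acids. Pyruvate dehydrogenase kinase (pdk2a), which switches off the oxidation of pyruvate, had 291 and 234 CPM in PB and 36.4 and 56.8 CPM in F1_CB (log2 fold change -2.51 ± 0.41, adjusted p = 0.0102). F1_CB lay between PB and PC, which had 5.12 and 7.78 CPM. The mitochondrial pyruvate carrier subunit mpc2 had 36.0 and 37.7 CPM in PB and 107 and 118 CPM in F1_CB (1.59 ± 0.36, adjusted p = 0.0444). The glycolytic enzymes pgam2 (1.03 and 2.41 CPM in PB, 27.2 and 17.2 CPM in F1_CB, 3.40 ± 0.46, adjusted p = 0.00304) and gpib (0.250 and 0.468 CPM in PB, 3.67 and 33.6 CPM in F1_CB, 3.81 ± 0.76, adjusted p = 0.0282) rose, and the 2 F1_CB livers were far apart in gpib. In all, 3 of 49 glycolysis and pyruvate genes were DEGs higher in F1_CB and 1 was higher in PB. That is 8.16% of the list, against 1.85% of all genes tested. The list median of 0.19 became -0.00 without the rescaling.

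For fatty acids, the carnitine O-palmitoyltransferase 1-like gene ENSIPUG00000000309, of the enzyme that admits fatty acids to oxidation, had 19.5 and 14.9 CPM in PB and 3.28 and 3.79 CPM in F1_CB (log2 fold change -2.12 ± 0.44, adjusted p = 0.0331). The regulator of fatty acid synthesis m1i1b had 76.2 and 66.4 CPM in PB and 18 and 15.0 CPM in F1_CB (-2.08 ± 0.41, adjusted p = 0.0252). Both were lower in F1_CB in each fish, while the nuclear receptor pparaa, which drives fatty acid oxidation genes in mammals, and the elongase elovl6 were higher. pparaa had 34.0 and 38.5 CPM in PB and 175 and 137 CPM in F1_CB (2.08 ± 0.45, adjusted p = 0.0404). elovl6 had 294 and 348 CPM in PB and 1295 and 1182 CPM in F1_CB (1.95 ± 0.43, adjusted p = 0.0434), above all 4 parental livers. F1_BC had 1157 and 674 CPM of elovl6. It was the 1 DEG of 25 fatty acid synthesis genes (4%, against 1.85% of all genes tested). The median of that list was 0.18, and it was -0.31 without PB liver 2 and 0.87 without PB liver 1. Peroxisomes, where long fatty acids are shortened, gave the protease lonp2 (2.77 ± 0.41, adjusted p = 0.00541) and the membrane protein pex11a (2.53 ± 0.53, adjusted p = 0.0337). Both were picked once their values were known, and other peroxisome genes were not counted. The uridine phosphorylase upp2 had 1534 and 1650 CPM in PB and 9428 and 9125 CPM in F1_CB (2.54 ± 0.42, adjusted p = 0.0104), and its livers differed little within each type. Glutathione peroxidase gpx4a, which removes lipid peroxides (2.63 ± 0.57, adjusted p = 0.0402), and the complex I subunit ndufa3 (2.73 ± 0.47, adjusted p = 0.0131) rose. ndufa3 was the 1 DEG of 96 respiratory chain genes (1.04%, against 1.85% of all genes tested), with 44 genes below 0 and a median of 0.04. Of 35 antioxidant genes, gpx4a was the DEG higher in F1_CB and hmox1a the DEG higher in PB (together 5.71%). The mitophagy receptor bnip3 had 76.8 and 67.1 CPM in PB and 241 and 459 CPM in F1_CB (2.20 ± 0.49, adjusted p = 0.0438). Of 43 genes of fatty acid oxidation and ketone bodies, pparaa was the DEG higher in F1_CB and pdk2a the DEG higher in PB. Together they were 4.65% of the list, against 1.85% of all genes tested. The list median was -0.00 (-0.29 without PB liver 2 and 0.21 without PB liver 1). The call of bnip3 was lost without each PB and each F1_CB liver (adjusted p of up to 0.338), as deposited, after quantile normalization, with a filter at 5 CPM, without the intensity trend and with the added scaling factors. Of the other 13 genes of fuel use named here, 0 kept the call in all 8 fits that left out 1 library: 12 lost it without PB liver 2 and 12 without F1_CB liver 1, 11 without F1_CB liver 2, 8 without PB liver 1 and 5 without each F1_BC liver, with adjusted p of up to 0.285. The calls of mpc2, pparaa and elovl6 were also lost without the rescaling (adjusted p of at most 0.0933), and mpc2, gpx4a, gpib and pex11a lost theirs in a fit of the 4 libraries alone. After quantile normalization, and again without the intensity trend, mpc2, elovl6, pparaa and gpx4a lost theirs. With the added scaling factors mpc2 lost its call.

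**Figure D3:**
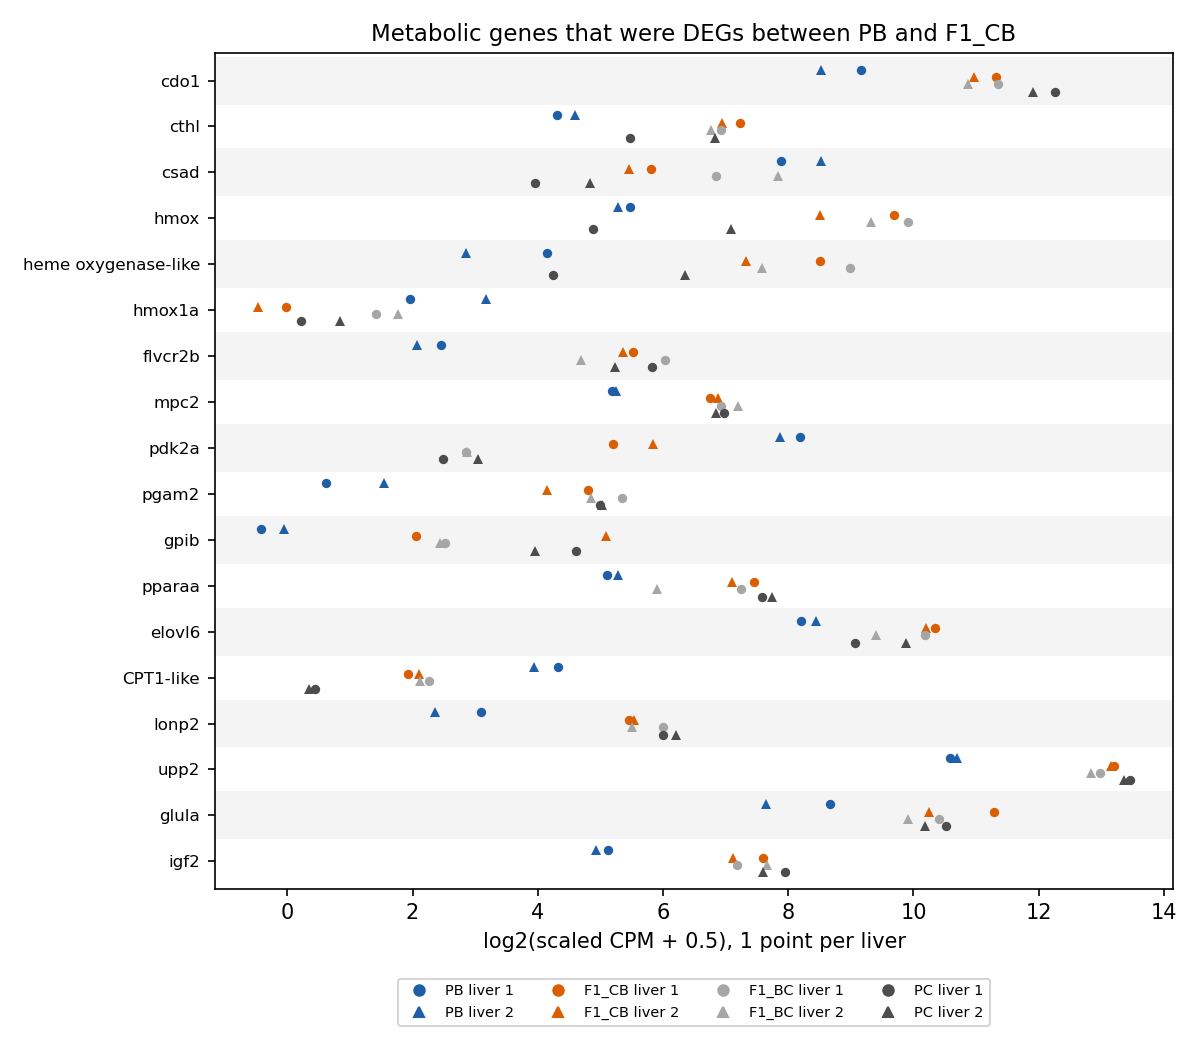
Level in each of the 8 livers of 18 metabolic DEGs, as log2(scaled CPM + 0.5) on the x axis, 1 row per gene, circles for liver 1 and triangles for liver 2. The orange F1_CB points lie left of the blue PB points in csad, hmox1a, pdk2a and the CPT1-like gene ENSIPUG00000000309 and right of them in the other 14 genes.

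Regulators of liver identity and growth were among the DEGs. Of 49 nuclear receptors and liver transcription factors, 3 were DEGs higher in F1_CB and 0 were higher in PB. That is 6.12% of the list, against 1.85% of all genes tested. The list median was 0.09, and it was -0.07 as deposited, -0.19 without PB liver 2 and 0.49 without PB liver 1. The forkhead factor foxa3, one of the FOXA proteins that open liver genes, had 5.79 and 3.04 CPM in PB and 139 and 228 CPM in F1_CB (log2 fold change 5.24 ± 0.50, adjusted p = 0.000465). PC was as high as F1_CB (121 and 165 CPM), and F1_BC was as low as PB (5.21 and 1.95 CPM). The zinc finger gene zbtb41 showed the same order, with 1.89 and 5.03 CPM in PB, 93.3 and 72.3 CPM in F1_CB, 100 and 77.1 CPM in PC and 10.3 and 6.70 CPM in F1_BC (F1_CB against PB 4.51 ± 0.47, adjusted p = 0.000582). Both foxa3 and zbtb41 kept the call without each library. Insulin-like growth factor II (igf2), a growth hormone target made by the liver, had 34.2 and 30.1 CPM in PB and 192 and 139 CPM in F1_CB (2.33 ± 0.38, adjusted p = 0.0104). It was the 1 DEG among 41 genes of the growth axis and insulin signalling (2.44%, against 1.85% of all genes tested). The median of these genes was 0.09 and turned to -0.09 as deposited and to -0.18 without F1_CB liver 2. The signalling ligand wnt8b (4.94 ± 0.82, adjusted p = 0.0114) and the receptor kinase erbb3a (3.00 ± 0.45, adjusted p = 0.00603) were higher as well.

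The DEGs higher in F1_CB included a vitellogenin-like gene, an estrogen receptor and an egg coat gene, none of which is in the egg yolk list. Vitellogenin, the yolk precursor, is made by the liver of maturing females under estrogen, and the vitellogenin-like gene ENSIPUG00000013294 had 4.33 and 0.509 CPM in PB and 351 and 36.3 CPM in F1_CB (log2 fold change 5.69 ± 1.06, adjusted p = 0.0197). The fish differed widely, also in PC (609 and 93.3 CPM) and F1_BC (153 and 282 CPM), and the standard error was the largest among the DEGs named here. Estrogen receptor 2 (esr2) had 21.7 and 19.3 CPM in PB and 136 and 119 CPM in F1_CB (2.60 ± 0.54, adjusted p = 0.0337). The call of esr2 was lost after quantile normalization and without the intensity trend. The egg coat protein gene zp2l1 had no measurable signal in the PB livers (1.54e-18 and 1.28e-18 CPM) and had 11 and 6.35 CPM in F1_CB (adjusted p = 0.00308), so no fold change is given. The second estrogen receptor, esr1, was the 1 measured gene of the egg yolk list and went the other way. It stood at 1.4 and 1.62 CPM in PB and 0.949 and 0.731 CPM in F1_CB (log2 fold change -0.59) and was not a DEG. Of the 8 regulators and egg genes named in both paragraphs, the other 6 lost the call in at least 1 fit without a library of PB or F1_CB (5 without PB liver 2, 5 without F1_CB liver 1, 4 without F1_CB liver 2 and 1 without PB liver 1), with adjusted p of up to 0.206, and esr2 also lost it without the rescaling.

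Further DEGs encode proteins that hepatocytes secrete or enzymes that act on their sugar chains. The complement C3-like gene ENSIPUG00000011979, of the protein on which the complement pathways converge, had 588 and 386 CPM in PB and 2585 and 2438 CPM in F1_CB (log2 fold change 2.40 ± 0.45, adjusted p = 0.0204). The protease gene c1s, described as mannan-binding lectin serine protease 2-like, had 58.0 and 51.3 CPM in PB and 336 and 217 CPM in F1_CB (2.30 ± 0.40, adjusted p = 0.0142). Both were higher in each F1_CB liver. Of the 27 complement genes in the list c1s alone was a DEG (3.70%, against 1.85% of all genes tested), and the list median was -0.00. In the same limma fit, 2 of the 27 were higher and 5 lower in F1_CB at an unadjusted p under 0.05. Over all 13408 genes tested, 1109 were higher and 858 lower at that threshold. The C3-like gene, which has no symbol, is not in that list. The anticoagulant protein C gene (PROC) had 35.6 and 17.3 CPM in PB and 101 and 92.6 CPM in F1_CB (1.94 ± 0.41, adjusted p = 0.0371). It was the 1 DEG of 28 coagulation genes (3.57%, against 1.85% of all genes tested). Of the 28, 19 had a positive log2 fold change (49.6% of all genes did), with a median of 0.49 that fell to 0.10 without PB liver 2. Sialyltransferases, which cap glycans, were represented among the DEGs higher in F1_CB by st6galnac6 (28.3 and 22.6 CPM in PB, 217 and 427 CPM in F1_CB, 3.56 ± 0.41, adjusted p = 0.00111), st3gal3a (3.11 ± 0.51, adjusted p = 0.0106) and st3gal3b (2.52 ± 0.46, adjusted p = 0.0177). These 3 were picked once their values were known, and the other genes of the family were not counted. The deglycosylating enzyme engase (2.37 ± 0.43, adjusted p = 0.0156) was the 1 DEG of 59 genes of glycan degradation and the lysosome. The oxidase ero1b, which forms disulfides in new secretory proteins (1.80 ± 0.39, adjusted p = 0.0423), was the 1 DEG of 43 genes of folding in the endoplasmic reticulum. These were 1.69% and 2.33% of the lists, near the 1.85% of all genes tested. Of these 8 genes st6galnac6 kept the call without each library, and the other 7 lost it without PB liver 2 or F1_CB liver 1 (6 without F1_CB liver 2, 3 without PB liver 1 and 2 without either F1_BC liver), with adjusted p of up to 0.333. PROC and ero1b also lost it without the rescaling, after quantile normalization, in the 4 libraries alone and without the intensity trend. With the added scaling factors ero1b lost it too.

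Several of the widest differences were in genes low in PB and well expressed in the other types. The NLRP12-like gene ENSIPUG00000012956, of a family of cytosolic immune sensors, had 2.32 and 1.09 CPM in PB and 363 and 55.8 CPM in F1_CB (log2 fold change 6.08 ± 0.73, adjusted p = 0.00131), and PC was higher still (1583 and 706 CPM). The kinase gene si:ch73-340m8.2, described as SRK3-like, had 2.44 and 0.801 CPM in PB and 151 and 98.8 CPM in F1_CB (5.97 ± 0.60, adjusted p = 0.000512). The tripartite motif gene trim108 had 9.23 and 1.33 CPM in PB and 271 and 230 CPM in F1_CB (5.89 ± 0.62, adjusted p = 0.000582). In each of the 3 genes the lowest liver outside PB was far above the highest PB liver. The sphingolipid regulator ormdl3 (4.43 and 3.95 CPM in PB, 159 and 195 CPM in F1_CB, 5.24 ± 0.62, adjusted p = 0.0012) and the peptide editor of MHC class I tapbpl (4.24 and 1.83 CPM in PB, 110 and 96.8 CPM in F1_CB, 4.96 ± 0.51, adjusted p = 0.000512) belonged here too. Under 1 CPM in both PB livers, and named without a list behind them, were the cell adhesion genes pcdhb (0.186 and 0.119 CPM in PB, 40.6 and 25.5 CPM in F1_CB, 5.65 ± 0.68, adjusted p = 0.00139), clstn2 (0.277 and 0.0632 CPM in PB, 25.8 and 15.9 CPM in F1_CB, 4.97 ± 0.50, adjusted p = 0.000512) and chl1b (4.52 ± 0.47, adjusted p = 0.000582), and with them the receptor subunit gabrr3b (4.87 ± 0.52, adjusted p = 0.00061). All 9 genes kept the call without each library.

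The DEG with the largest difference in favour of PB was a macrophage receptor, and further DEGs higher in PB encode other receptors. The scavenger receptor gene MARCO (ENSIPUG00000013048, macrophage receptor with collagenous structure), by which resident macrophages bind bacteria, had 117 and 117 CPM in PB and 3.26 and 1.79 CPM in F1_CB (log2 fold change -5.32 ± 0.46, adjusted p = 0.000247). The PB livers were nearly equal, F1_CB was as low as PC (3.83 and 6.91 CPM), and F1_BC lay between (27.7 and 48.4 CPM). The hyaluronan receptor lyve1a, a marker of lymphatic and liver sinusoidal endothelium, had 33.7 and 53.2 CPM in PB and 3.70 and 2.59 CPM in F1_CB (-3.57 ± 0.53, adjusted p = 0.00555). The C-type lectin gene ENSIPUG00000017719, CLEC6A-like, had 14.2 and 12.3 CPM in PB and 1.29 and 0.698 CPM in F1_CB (-3.23 ± 0.57, adjusted p = 0.0142). The flagellin receptor tlr-5 had 33.5 and 81.0 CPM in PB and 10.3 and 7.26 CPM in F1_CB (-2.52 ± 0.53, adjusted p = 0.0337). As in every DEG, none of the 4 genes overlapped between the types. Further DEGs of genes known from white blood cells that were lower in F1_CB were inpp5d (-2.62 ± 0.50, adjusted p = 0.0219), syk (-2.08 ± 0.43, adjusted p = 0.0337), limd2 (-2.03 ± 0.45, adjusted p = 0.0423), the CD94-like gene ENSIPUG00000007153 (-2.23 ± 0.49, adjusted p = 0.0423) and the granulins-like gene ENSIPUG00000009927 (-2.96 ± 0.52, adjusted p = 0.0142). Of these 9 genes MARCO kept the call without each library. The other 8 lost it without PB liver 2 or F1_CB liver 2, 7 without F1_CB liver 1, and 3 each without PB liver 1 or either F1_BC liver, with adjusted p of up to 0.318. The CD94-like gene also lost it as deposited, after quantile normalization and in the 4 libraries alone (adjusted p of at most 0.0544).

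The macrophage list, matched by symbol, does not hold MARCO, which has none in the table. Of 20 macrophage markers 18 had a negative log2 fold change, as had 6756 of all 13408 genes tested, and the median was -1.26. In 12 markers both F1_CB livers lay below both PB livers (22.9% of all genes did). An unadjusted p under 0.05 in that direction was seen in 11 (6.4% of all genes), and 0 were DEGs (0.336% of all genes were DEGs higher in PB). The complement C1q genes, which macrophages make, had 37.7 and 37.8 CPM (c1qa) and 40.9 and 43.8 CPM (c1qc) in PB and 13 and 5.15 CPM and 12.4 and 5.22 CPM in F1_CB. Their F1_CB livers lay below both PB livers, with adjusted p of 0.0889 and 0.0546. The summed level of the 20 markers was 1001 and 1581 CPM in PB and 773 and 456 CPM in F1_CB. It was 1332 and 1776 CPM in F1_BC and 1569 and 1639 CPM in PC. In bulk liver, fewer macrophages and less RNA per macrophage cannot be told apart. The macrophage median stayed negative under every scaling and without each library, at -0.76 without PB liver 2.

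Most interferon and antigen presentation genes also had negative log2 fold changes. Of all 13408 genes tested, 6756 had a negative log2 fold change and 0.336% were DEGs higher in PB. Of 33 interferon response genes, 24 had a negative log2 fold change (median -0.74, or -0.40 without PB liver 2) and 0 were DEGs, with 11 at an unadjusted p under 0.05 in that direction (6.4% of all genes). isg15, a ubiquitin-like protein induced by interferon, had 3.23 and 28.9 CPM in PB and 0.533 and 0.582 CPM in F1_CB (adjusted p = 0.0588). Its 2 PB livers were far apart. The summed level of the 33 interferon genes was 849 and 930 CPM in PB and 852 and 821 CPM in F1_CB. These sums overlapped between the types. Of 19 antigen presentation genes, 14 had a negative log2 fold change (median -0.68), and tapbpl, higher in F1_CB, was the 1 DEG (5.26%, against 1.85% of all genes tested). The immunoproteasome subunit psmb9a had 24.6 and 39.2 CPM in PB and 10.6 and 10.0 CPM in F1_CB (adjusted p = 0.0797). Counted by the sign of the log2 fold change, endothelial and stellate markers were lower in F1_CB in 20 of 28 (median -0.64). Of these 28, lyve1a was the 1 DEG (3.57%, against 1.85% of all genes tested). Red blood cell markers were lower in 9 of 11 (median -0.75, 0 DEGs) and neutrophil markers in 10 of 12 (median -0.84, 0 DEGs). Lymphocyte markers were split, with 4 of 8 lower and 4 higher (median -0.11, 0 DEGs). The neutrophil median turned positive, to 0.22, without PB liver 2, and that of red blood cells moved to -0.31. Without PB liver 1 they were -1.65 and -1.33. Summed levels were 861 and 1901 CPM in PB and 689 and 1269 CPM in F1_CB for red blood cell markers, 47.4 and 127 CPM in PB and 44.3 and 39.1 CPM in F1_CB for neutrophil markers, and 1165 and 1460 CPM in PB and 825 and 808 CPM in F1_CB for endothelial and stellate markers. The part of blood and other cell types in the single-gene differences was not tested.

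**Figure D4:**
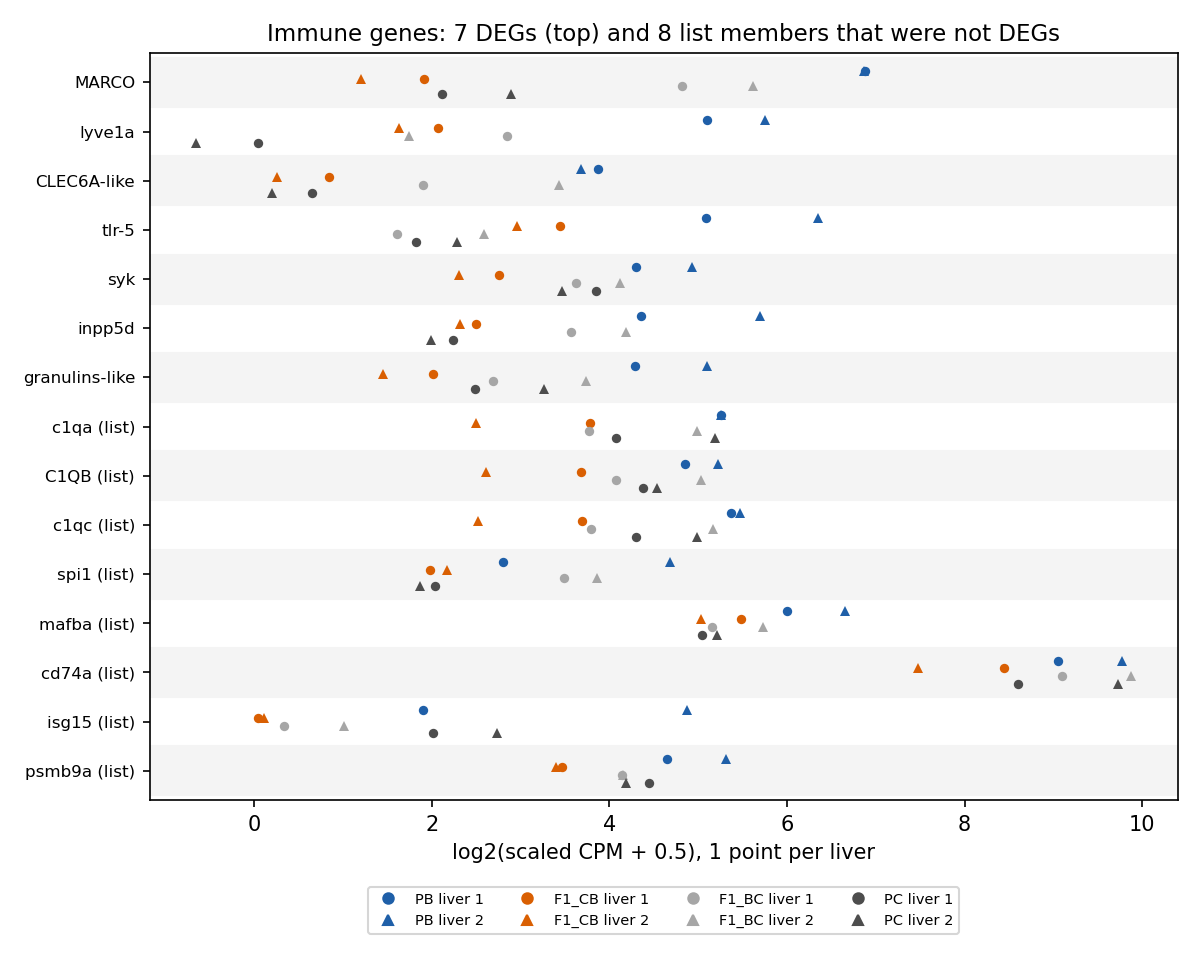
Level in each of the 8 livers of 7 immune DEGs (top) and of 8 list members that were not DEGs (bottom, marked list), as log2(scaled CPM + 0.5) on the x axis, circles for liver 1 and triangles for liver 2. The orange F1_CB points lie left of the blue PB points in all 15 rows, which were picked among genes lower in F1_CB. Not shown are tapbpl, a DEG higher in F1_CB, and the other list members with a positive log2 fold change. In all, 9 of 33 interferon, 5 of 19 antigen presentation and 2 of 20 macrophage genes had one. In isg15 and spi1 the PB livers are far apart.

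The other genes higher in PB had varied roles. The microtubule protein gene map1ab had 40.6 and 252 CPM in PB and 6.91 and 7.0 CPM in F1_CB (log2 fold change -3.77 ± 0.67, adjusted p = 0.0145), which placed the PB livers far apart. The acyltransferase-like gene si:dkey-76k16.6, of a family that couples glycine to acids for excretion, had 32.1 and 10.4 CPM in PB and 1.19 and 1.49 CPM in F1_CB (-3.36 ± 0.54, adjusted p = 0.00945). In this gene F1_CB was below every other liver, as PC had 42.9 and 30.0 CPM and F1_BC 33.8 and 19.6 CPM, and its log2 difference from PC was -4.31 ± 0.54 (adjusted p = 0.00291). Both C1q-like genes, si:dkey-5n18.1 (-3.40 ± 0.63, adjusted p = 0.0197) and c1ql3b (-3.03 ± 0.66, adjusted p = 0.0423), were lower in F1_CB. So were the TRIM39-like gene ENSIPUG00000012410 (-3.39 ± 0.60, adjusted p = 0.0148), lgals17, described as CD276-like (-3.27 ± 0.73, adjusted p = 0.0438), cdcp2 (-3.11 ± 0.55, adjusted p = 0.015), hmgxb3 (-3.03 ± 0.67, adjusted p = 0.0441), ptgr1, which inactivates prostaglandins (-3.02 ± 0.60, adjusted p = 0.0269), mustn1 (-2.98 ± 0.67, adjusted p = 0.0444) and the actin-binding profilin gene pfn1 (-2.62 ± 0.54, adjusted p = 0.0333). Of 32 cell cycle and replication genes, the helicase subunit mcm5 was lower in F1_CB (-2.93 ± 0.58, adjusted p = 0.0262) and the cyclin ccnb2 was higher (2.70 ± 0.60, adjusted p = 0.0438). They were the DEGs of that list (6.25%, against 1.85% of all genes tested). All 13 genes lost the call without either F1_CB liver, 12 without PB liver 2, 5 without PB liver 1 and 4 without either F1_BC liver, with adjusted p of up to 0.351. Of them, 7 (c1ql3b, ccnb2, hmgxb3, lgals17, mustn1, pfn1 and ptgr1) also lost it under another scaling, pseudocount, filter, sample set or variance model, with adjusted p of up to 0.139. A histone H3.3 gene, ENSIPUG00000019301, had 77.3 and 56.7 CPM in PB and 590 and 475 CPM in F1_CB (2.99 ± 0.38, adjusted p = 0.00223), and it lost the call without F1_CB liver 1 (adjusted p = 0.0533). Of the 22 DEGs with neither symbol nor description, ENSIPUG00000017863 rose (0.000707 and 0.0564 CPM in PB, 19.8 and 21.3 CPM in F1_CB, 5.32 ± 0.43, adjusted p = 0.000247) and ENSIPUG00000013240 fell (11.5 and 7.34 CPM in PB, 0.050 and 0.00159 CPM in F1_CB, -4.21 ± 0.59, adjusted p = 0.00404), and both kept the call without each library.

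The sterol synthesis list had 25 of 30 genes with a negative log2 fold change, as had 6756 of all 13408 genes tested, and a median of -0.47. It had 0 DEGs and 8 genes at an unadjusted p under 0.05 in that direction (6.4% of all genes). Its summed level was 2049 and 1114 CPM in PB and 1204 and 1182 CPM in F1_CB, with PB liver 1 apart from the rest, and the median was -0.95 without PB liver 2. The early enzyme hmgcs1 had 77.3 and 29.3 CPM in PB and 8.36 and 20.2 CPM in F1_CB (adjusted p = 0.169). For 78 cytosolic ribosomal protein genes the median was 0.13, with 0 DEGs, and it changed sign as deposited (-0.06), under quantile normalization (-0.09) and without F1_CB liver 1 (-0.09). Proteasome subunits had a median of -0.26 with 38 of 51 genes below 0, which was -0.06 without PB liver 2 and -0.50 without PB liver 1. The median of 27 cytochrome P450 genes, with 0 DEGs, was -0.12 and turned to 0.39 without PB liver 1. For 33 housekeeping genes, with 1 DEG (gpib, 3.03% of the list, against 1.85% of all genes tested), the median was -0.08. The mitochondrial genome list matched 0 genes of the table.

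**Figure D5:**
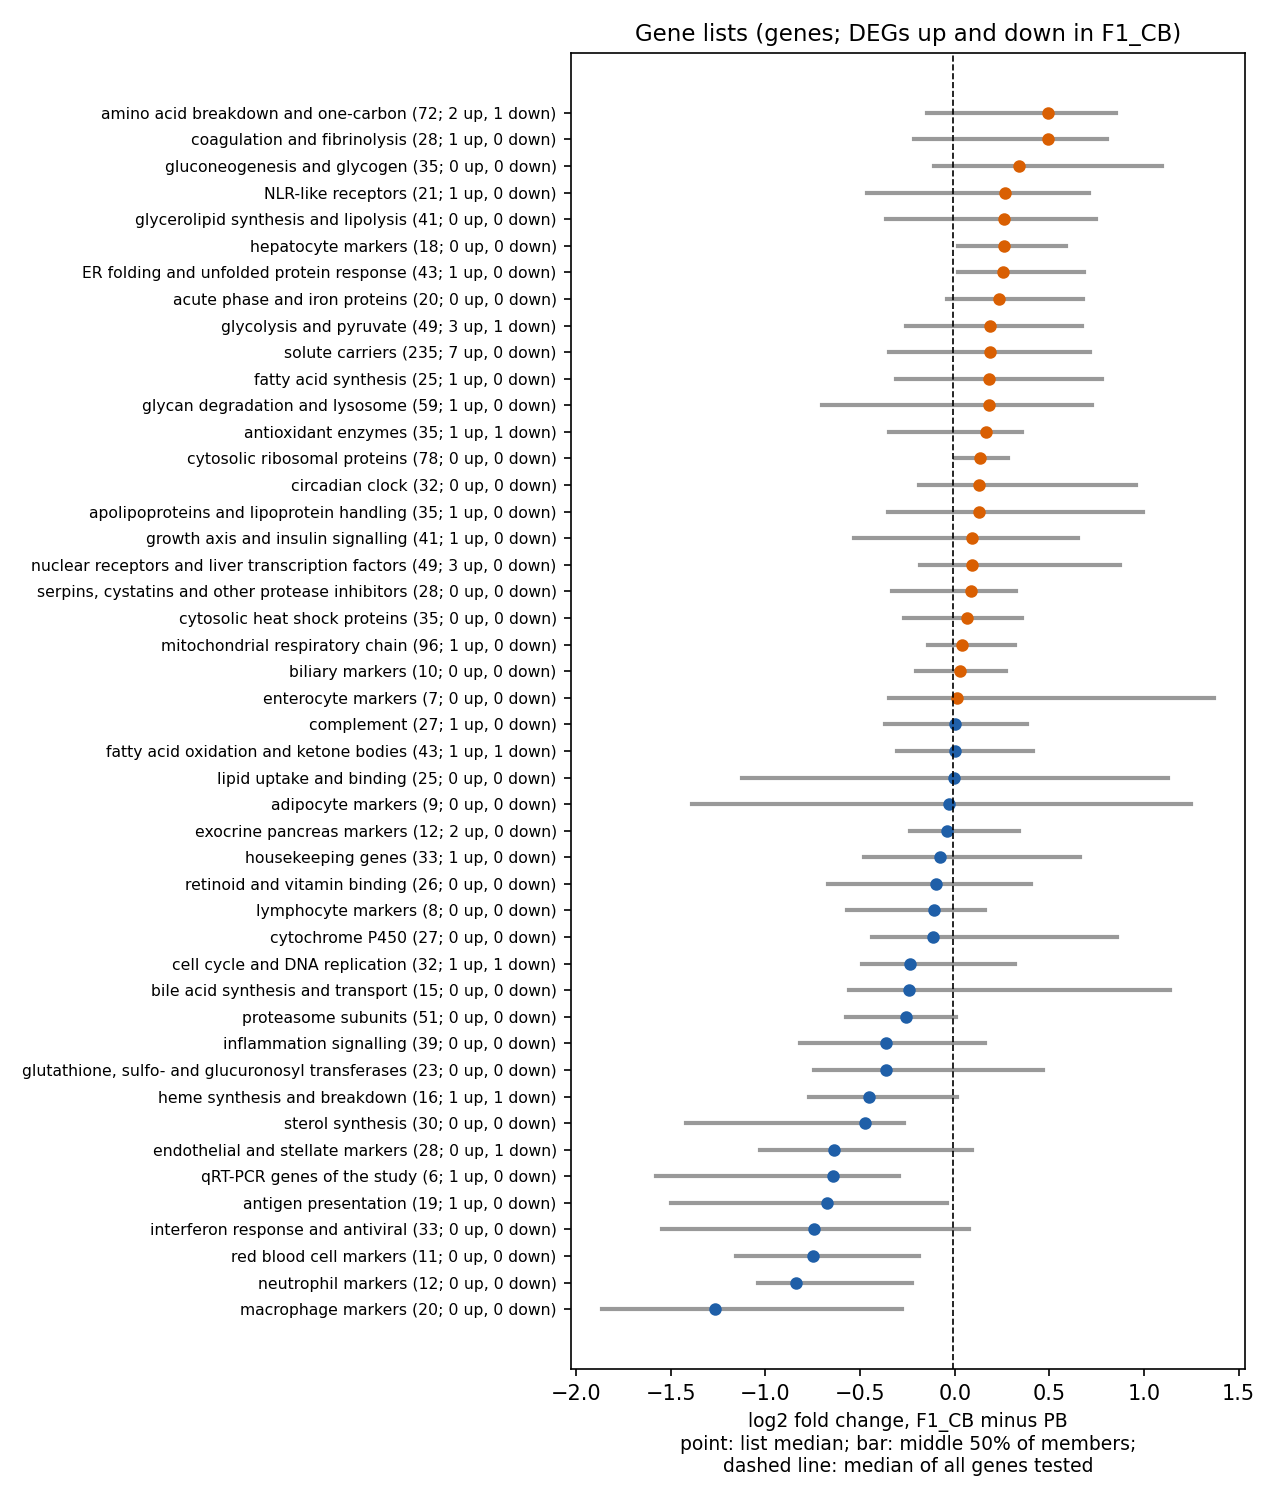
Median log2 fold change, F1_CB minus PB, of each gene list with at least 6 measured genes (points, orange above 0 and blue below), with the middle 50% of its members (grey bars) and the median of all genes tested (dashed line, -0.01). Numbers after each name are the genes measured and the DEGs higher and lower in F1_CB, and the macrophage, neutrophil, red blood cell and interferon lists have the lowest medians.

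Of the 6 genes in the qRT-PCR list, hmox was the 1 DEG (16.7%, against 1.85% of all genes tested). The growth factor gene fgf1b had 371 and 121 CPM in PB and 98.2 and 19.7 CPM in F1_CB (log2 fold change -2.25 ± 0.85, adjusted p = 0.226), and cyp2k19 had 28.6 and 15.4 CPM in PB and 10.4 and 2.97 CPM in F1_CB (-1.81 ± 0.63, adjusted p = 0.193). Both had every F1_CB liver below every PB liver, as did irf7 and creg1, which was true of 22.9% of all genes tested. The spread of fgf1b and cyp2k19 was too wide for the call. The log2 fold changes of irf7 (-0.89 ± 0.45, adjusted p = 0.395), creg1 (-0.40 ± 0.39, adjusted p = 0.703) and tm4sf4 (-0.26 ± 0.66, adjusted p = 0.912) were smaller.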

How the data were processed

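Liver RNA of 8 fish, 2 of each genetic type, was enriched for polyadenylated RNA and sequenced by the authors, who trimmed the reads with Trimmomatic, aligned them with TopHat2 2.1.1 to the channel catfish genome, counted them on gene models with bedtools 2.29.0 and scaled the counts with edgeR. The genome build, and whether counting used the strand, are not given in the sources used here, which leaves antisense pairs uncertain.

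The deposited values are named RPKM by the authors but behave as CPM, since each library sums to between 996838 and 998652, and they were treated as CPM. The design had assumed RPKM, and the same test was used. The authors also deposited 1 column of average log2 CPM per gene, which served only as a check of the unit. The values are not whole multiples of a read, so no count test was run and the depth is unknown. Precision was judged from the spread between livers.

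Values were divided by median-of-ratios factors, genes whose mean passed 1 CPM in any of the 4 types were kept (13408 of 13444), and log2(CPM + 0.5) was fitted with limma 3.58.1 in R 4.3.3, with an intensity trend, all 8 libraries in 1 fit and Benjamini-Hochberg adjustment over all genes tested. The thresholds are those of the study. Fish are the replicates, and nothing in the labels pairs them across types.

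The comparison and the 48 gene lists were chosen with earlier results of these data known, so lists were described by counts and medians, with no test. Named genes are the 14 largest DEGs in each direction with a symbol or description, at most 4 DEGs of a list, the marker genes, the qRT-PCR genes and the 4 DEGs with the smallest adjusted p between F1_CB and F1_BC. The genes cthl, lipia, flvcr2b, upp2, st3gal3a, st3gal3b, st6galnac6, tlr-5, syk, inpp5d, limd2, m1i1b, lonp2, pex11a, kyat3, nit2, zp2l1, pfn1, efhb, SAT1, bnip3, chl1b, gabrr3b, erbb3a, the heme oxygenase-like, CPT1-like, complement C3-like, CD94-like and histone H3.3 genes, ENSIPUG00000013240, ENSIPUG00000017863 and the list members named although they were not DEGs, were picked once their values were known. The patterns of the ribosomal protein and qRT-PCR lists were corrected after a first look, to leave out a kinase and a second heme oxygenase. The script was tested on simulated data.

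Alternatives were the values as deposited, quantile normalization, pseudocounts of 0.1 and 1, no filter and a filter at 5 CPM, the 4 libraries alone, no intensity trend, each threshold alone, a replicate block, and each library left out. Factors from genes with a mean above 5 CPM in all types were added after seeing the data.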

Additional observations from a re-analysis of the deposited data

Results flagged for a closer look

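Among the 248 DEGs, 6 also differed between the reciprocal hybrids in the same limma fit, with an adjusted p under 0.05 for F1_CB minus F1_BC. Over all 13408 genes 18 did (0.134%), and both contrasts share the F1_CB libraries. The largest difference was in foxa3, which was higher in F1_CB by a log2 difference of 5.57 ± 0.50 (SE, adjusted p = 0.000829). F1_BC had 5.21 and 1.95 CPM, as low as PB, and F1_CB had 139 and 228 CPM, as high as PC. The zinc finger gene zbtb41 had the same order of types, with a log2 difference of 3.23 ± 0.47 (adjusted p = 0.0204). Both genes were thus high in the types with a channel catfish mother and low in those with a blue catfish mother.

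MARCO (ENSIPUG00000013048) was lower in F1_CB than in F1_BC, with a log2 difference of -3.66 ± 0.46 (adjusted p = 0.00982). The glycine N-acyltransferase-like gene si:dkey-76k16.6 was lower as well, by -3.84 ± 0.54 (adjusted p = 0.0179), and here F1_CB stood below the 6 livers of all other types. The kinase pdk2a was higher in F1_CB than in F1_BC, by 2.66 ± 0.41 (adjusted p = 0.0293), since F1_BC had 6.72 and 6.81 CPM, close to PC. The EF-hand gene efhb was lower in F1_CB, by -3.53 ± 0.55 (adjusted p = 0.0311), with 8.5 and 5.04 CPM against 103 and 64.0 CPM in F1_BC and 0.310 and 0.294 CPM in PB. Each value rests on 2 fish a type, and the tank of each type cannot be told apart from the direction of the cross.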

How the results depend on the processing

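All 248 DEGs kept their direction under every alternative in which they were tested. The count of DEGs was 191 as deposited, 198 after quantile normalization, 265 and 227 with pseudocounts of 0.1 and 1, 246 without a filter, 210 with a filter at 5 CPM, 251 in the 4 libraries alone, 224 without the intensity trend and 231 with the added factors, all within 1.5 times of 248. By fold change alone 1106 genes passed, 661 higher in F1_CB and 445 higher in PB, and by adjusted p alone the same 248. With a replicate block the count was 378 (287 higher in F1_CB and 91 higher in PB), and all 248 were among them. The labels do not say that a number marks a shared origin, and with 2 fish a type the numbers were not taken to pair them. Deviations of same-numbered fish correlated at 0.13 between PB and F1_CB and at -0.01 to 0.14 over the 6 pairs of types, 5 of them positive. Leaving out 1 library gave 46 to 353 DEGs, 41 to 274 higher in F1_CB and 3 to 79 higher in PB. The lowest counts came without PB liver 2 or either F1_CB liver and the highest without a PC library (343 and 353), and the cause was not tested. Of 1838 values of the 92 named genes under an alternative, 0 changed sign in a gene that was a DEG in the main fit or in the alternative. In tm4sf4, which was never a DEG, the log2 fold change ran from -1.52 to 1.02 when 1 library was left out. Outside the fits without 1 library 69 values lost the call, and further calls were lost in those fits. The 2 values that gained it did so by fold change alone (fgf1b and cyp2k19). The depth of the libraries is unknown, so no counting interval can be given.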
